A study of Homo sapiens with 5 samples.

Results

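The 8 loci described here were followed through DRIP-seq peak lists of PC-9, a widely used cell line derived from a human lung adenocarcinoma. They were the genes TFPT, CALM3, FBXL17, APOE, BTBD19 and ACTB, which are often amplified as test loci for R-loops, and the abundant nuclear long non-coding RNAs (lncRNAs) MALAT1 and NEAT1. A peak was counted for a locus when the deposited list named that gene for it. Of the 80323 peaks in the 4 lists, 16 carried one of the 8 names, and 6 of the 8 loci had at least 1. CALM3 and NEAT1 had none.

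An R-loop is a structure in which a nascent transcript pairs with its template and leaves the other DNA strand single. R-loops are known to form where a G-rich transcript leaves the polymerase, at CpG island promoters and past polyadenylation sites, and in DRIP the S9.6 antibody recovers the RNA:DNA hybrid together with its DNA. Test loci are used because their hybrids are easily recovered in many cell lines, so they serve as positive amplicons when a pull-down is checked by quantitative PCR. MALAT1 and NEAT1 are among the most transcribed nuclear lncRNA genes, and each belongs to a nuclear body, the speckle and the paraspeckle.

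The study compared 2 control DRIP libraries of PC-9 cells with 2 that carry the label exp, understood to be the FANCI knockdown of the study design. The FANCI protein acts in the Fanconi anaemia pathway, which repairs DNA crosslinks. All DRIP libraries were made with S9.6, and 1 input library, made without antibody, was counted over the same peaks. No source used here gives the knockdown method or the treatment of the control cells, and FANCI itself was not measured. Separate cultures are not stated for the libraries of a group, so the p-values rest on a spread that may be technical. The control lists held 25281 and 23903 peaks and the exp lists 16785 and 14354, with 646455 to 1266127 DRIP reads over the peaks of a library and a median of 24 to 30 per peak. Both exp lists were shorter than both control lists, and counts with lists of equal length are given beside the first results. Coordinates are those of the hg38 (GRCh38) build.

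Promoter sequences came from RefSeq (GRCh38.p14, 250 bases before to 50 after a transcript start, on the coding strand), where 6 of the 8 loci had at least 1 window and ACTB and NEAT1 are named only. The windows of TFPT, APOE and CALM3 are shown because they set a promoter under a peak in both controls beside one under a peak in 1 control and one with no peak at all. Capitals mark runs of at least 4 G (GGGG) and at least 4 C (CCCC), the same run read on the other strand, and no run overlaps another.
TFPT, chr19:54115608-54115907, minus strand: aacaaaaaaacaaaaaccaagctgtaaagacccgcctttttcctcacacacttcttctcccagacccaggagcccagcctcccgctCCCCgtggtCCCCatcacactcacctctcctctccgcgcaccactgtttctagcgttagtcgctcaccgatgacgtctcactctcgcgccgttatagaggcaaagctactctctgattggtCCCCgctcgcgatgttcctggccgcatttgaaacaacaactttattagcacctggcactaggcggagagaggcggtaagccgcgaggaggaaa
APOE, chr19:44906151-44906450, plus strand: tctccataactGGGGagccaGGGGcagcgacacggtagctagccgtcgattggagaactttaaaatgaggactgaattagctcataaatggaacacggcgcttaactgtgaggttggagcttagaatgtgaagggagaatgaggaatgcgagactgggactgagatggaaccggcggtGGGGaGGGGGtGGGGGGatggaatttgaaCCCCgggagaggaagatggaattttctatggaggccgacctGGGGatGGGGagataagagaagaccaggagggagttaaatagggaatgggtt
CALM3, chr19:46601819-46602118, plus strand: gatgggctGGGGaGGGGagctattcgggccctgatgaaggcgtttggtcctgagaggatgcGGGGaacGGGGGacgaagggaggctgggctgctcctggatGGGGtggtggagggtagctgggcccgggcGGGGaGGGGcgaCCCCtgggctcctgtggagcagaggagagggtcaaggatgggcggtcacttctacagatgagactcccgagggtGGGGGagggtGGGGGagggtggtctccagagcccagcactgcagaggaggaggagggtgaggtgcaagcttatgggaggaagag
The TFPT window has 0 runs of G and 3 of C, the APOE window 7 and 1, and the CALM3 window 9 and 1. Among 35116 RefSeq promoter windows of this length, 75.1% hold a GGGG run and 73.6% a CCCC run on the coding strand, with a median of 2 GGGG runs. GC skew, the excess of G over C divided by their sum, was -0.26 on the coding strand of the TFPT window, 0.48 in the APOE window and 0.48 in the CALM3 window. The APOE and CALM3 windows exceeded 99.7% of all windows in this skew, and the TFPT window exceeded 3.62%. RefSeq gives several windows for some of these genes, one for each transcript start, and for TFPT and APOE the one that met a peak is printed. The printed CALM3 window begins at 46601819, inside a gene span that starts at 46601074. No CALM3 window at that outer start was among those used, so its skew there is not given. The other TFPT window, at 54115025 to 54115324 with a coding-strand skew of 0.32 and 4 GGGG runs, lay under no peak. The other APOE windows, with 8 and 9 GGGG runs, lay under none either. The printed window of TFPT, C-rich on its coding strand, lay under a peak in both controls. This window also holds the start of PRPF31, a gene on the plus strand, for which its skew is 0.26. The peaks therefore cannot be assigned to a C-rich promoter alone. The printed APOE window, which is G-rich, lay under a peak in control 1 alone, and the equally G-rich window of CALM3 lay under none in any library.

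Of the 8 members, 6 and 5 had a peak in control 1 and control 2, and 2 and 1 in exp 1 and exp 2. Both exp libraries lay below both controls, with means of 1.5 ± 0.71 (SD, n = 2) and 5.5 ± 0.71 (SD, n = 2). A two-sided exact permutation test over the libraries gave p = 0.33, the lowest value that 2 against 2 can reach. The shares of all 20056 RefSeq protein-coding genes with a peak were likewise lower in both exp libraries than in both controls, 24.4% and 24.9% in control 1 and control 2 and 17.8% and 14.3% in exp 1 and exp 2, while 58.6% had a peak in no library. Assigned peaks numbered 7, 6, 2 and 1 in the same libraries (two-sided exact permutation p = 0.33).

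The members TFPT, FBXL17, APOE and MALAT1, were called in control 1 and control 2 but not in exp, and no member showed the reverse. Among all protein-coding genes 3.67% had the first pattern and 0.529% the second. For protein-coding genes that span under 10 kb, as TFPT, APOE, CALM3, BTBD19 and ACTB do, the shares were 1.58% and 0.175%, and 10.9%, 8.55%, 5.06% and 4.19% had a peak in control 1, control 2, exp 1 and exp 2. RefSeq lncRNA genes had the patterns in 0.442% and 0.0927% and a peak in 3.19%, 2.65%, 2.01% and 1.5%, with 0.469% called in all 4 libraries and 94.5% in none, where many lncRNA names of RefSeq and of the lists may differ. The loci were chosen with results of these libraries known, and 4 of 8 has no test. With only peaks of −log10 q of at least 5 kept, 0, 1, 1 and 1 members had a peak in control 1, control 2, exp 1 and exp 2, so none kept the first pattern, which 0.489% of protein-coding genes had at this threshold, and ACTB took the second, which 0.0548% had. At −log10 q of at least 2, and with each list limited to its 14354 peaks of highest −log10 p, the 4 members kept the first pattern, beside 3.31% and 1.76% of protein-coding genes for the first and 0.404% and 1.07% for the second. TFPT did so in control 2 only through a peak within the neighbouring gene PRPF31, at −log10 q 5.46, since its promoter peak (1.66) passed neither filter. The same PRPF31 peak made TFPT the control 2 member at −log10 q of at least 5. ACTB had a peak in all 4 libraries, as 5.13% of protein-coding genes and 0.981% of those under 10 kb did, and BTBD19 in control 1 and exp 1.

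**Figure D1:**
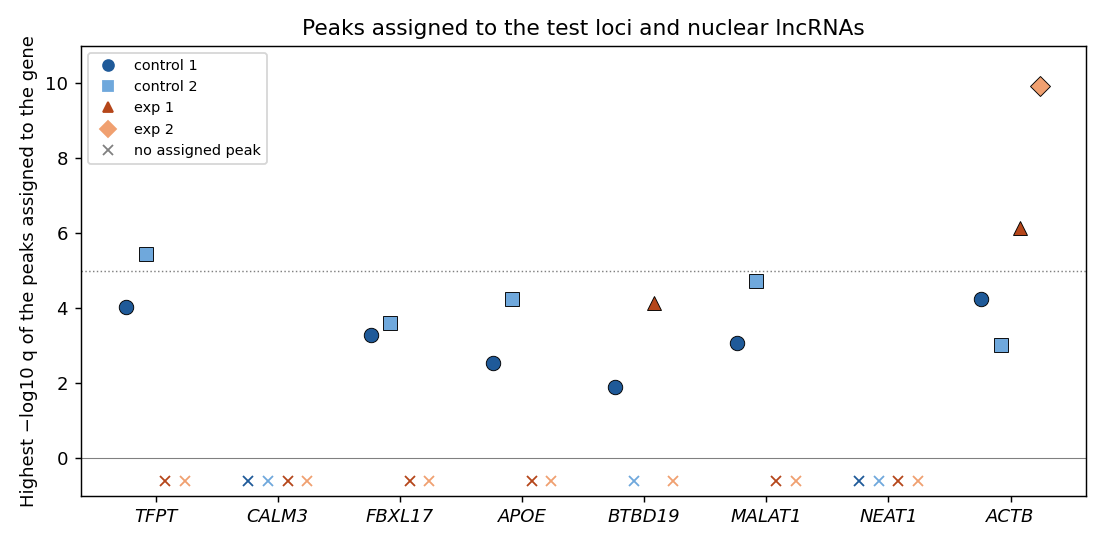
Highest −log10 q (vertical axis) among the peaks assigned to each of the 8 loci (horizontal axis) in control 1, control 2, exp 1 and exp 2; crosses under the zero line mark a library with no assigned peak, and the dotted line is −log10 q of 5. TFPT, FBXL17, APOE and MALAT1 have symbols for both controls only, ACTB has one for every library and its exp values of 6.14 and 9.94 lie above its control values of 4.26 and 3.02. The control 2 symbol of TFPT, at 5.46, is a peak within PRPF31, while the promoter peak of that library had 1.66.

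By the location classes of the lists, 5 of the 16 peaks were of a promoter class, 9 of a terminator class and 2 of gene body alone. Of the terminator-class peaks 5 were those of ACTB and 2 those of BTBD19, and the share of this class over the whole lists is not given here. All 5 promoter-class peaks were in controls, and the 3 exp peaks were terminator-class peaks of BTBD19 and ACTB. Over the whole lists, the share of promoter-class peaks was 7.10% in control 1, 5.62% in control 2, and in exp 4.05% and 3.86%. Peaks with at least 1 bp in common were joined, which left 10 regions at the members, of which 4 were called in at least 2 libraries and 6 in a single library. Presence of a peak in both controls therefore does not mean the same place in the gene.

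**Figure D2:**
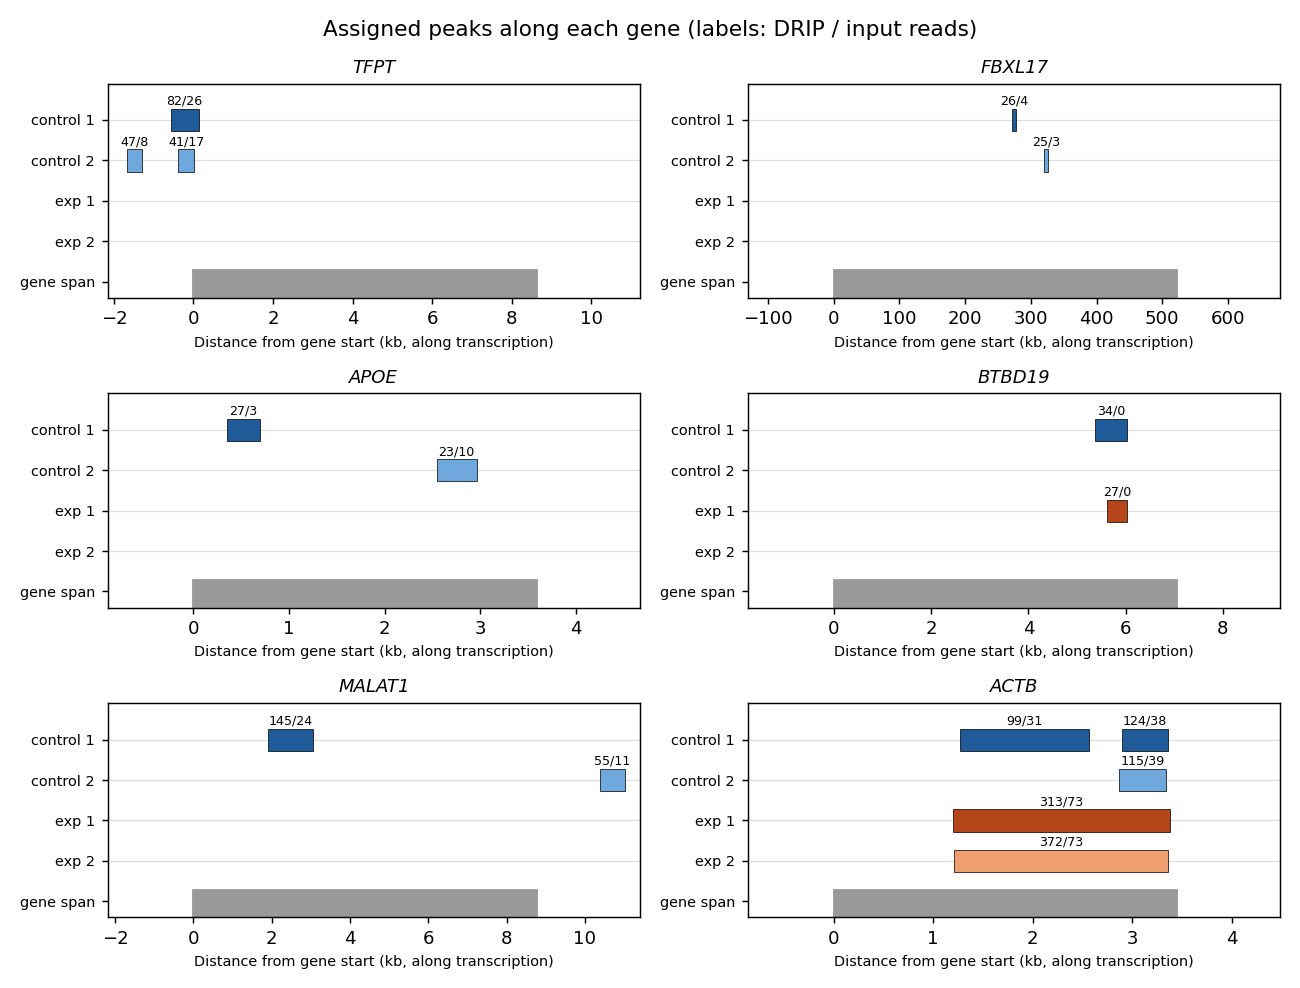
Peaks assigned to the 6 loci that had any, drawn by library (rows) against the distance from the start of the RefSeq gene span in kb along the direction of transcription, with the span as a grey bar and DRIP / input reads above each peak. Peaks of FBXL17, at 274 and 324 kb, are drawn wider than they are so as to be visible; the TFPT peaks of control 1 and control 2 overlap at the start of the gene with a further control 2 peak before it, those of APOE, FBXL17 and MALAT1 stand apart, and the exp peaks of ACTB span both control 1 peaks.

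TFPT (ENSG00000105619, chromosome 19, 54107020 to 54115657, minus strand) encodes a subunit of the INO80 chromatin remodelling complex. A promoter peak of control 1 ran from 54115526 to 54116234 and held 82 DRIP and 26 input reads, a ratio of 3.15 (95% Clopper-Pearson interval 2.01 to 5.11). Control 2 had an overlapping promoter peak at 54115637 to 54116039 with 41 and 17 reads, a ratio of 2.41 (1.34 to 4.53). Their summits stood 86 and 16 bp before the start of the gene, over the window printed above. This promoter is shared: PRPF31, a splicing factor gene on the other strand, starts at 54115754. Of the 2 peaks, 481 and 286 bp lay in the PRPF31 span and 132 and 21 bp in that of TFPT. A further control 2 peak named for TFPT, at 54116956 to 54117336 with 47 DRIP and 8 input reads, lay 1.53 kb before the start of TFPT at its summit and wholly within PRPF31. The deposited GC skew of the control 2 promoter peak, 0.25, was close to that of the printed window on the reference strand, 0.26. That strand is the coding strand of PRPF31, and on the coding strand of TFPT the sign is opposite. The longer control 1 peak had 0.08. Neither exp library had a peak at this promoter.

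The surroundings of TFPT were densely called in every library. Within 100 kb of the gene the controls had 31 and 33 peaks and the exp libraries 16 and 13, against a median of 2, 2, 1 and 1 around the 10215 protein-coding genes that span under 25 kb. These counts exceeded those of 99.7%, 99.9%, 99.6% and 99.3% of such genes. The peaks lay in or beside NDUFA3, OSCAR, TARM1, VSTM1, CACNG6, PRPF31, CNOT3, LENG1, TMC4, MBOAT7, TSEN34, RPS9, AC245052.1 and AC245052.4. OSCAR, an immune receptor gene, had a gene-body peak over one position in all 4 libraries. The control 1 peak spanned 820 bp with 174 DRIP and 26 input reads, that of control 2 670 bp with 92 and 22. Both exp peaks were narrower, 343 bp with 58 and 9 reads for exp 1 and 431 bp with 66 and 12 for exp 2. Since widths and input reads differ too, the DRIP counts alone do not show a change between the groups. NDUFA3, a complex I subunit gene that follows TFPT, also had a peak in all 4 libraries. In exp 1 and exp 2 the nearest peak stood 439 and 5 bp from the RefSeq span of TFPT, at its far end and named for NDUFA3. Input reads pooled over the peaks of these surroundings came to 35.6 and 32.4 per kb for the lists of controls 1 and 2. For exp 1 and exp 2 they came to 32.9 and 36.0 per kb. Pooled over every peak of a list, the values were 29.3 and 29.5 for the controls, thus lower than the surroundings. For exp they were 33.8 and 37.3, thus higher. The median peak had 15.0 and 14.3 per kb in the control lists and 14.1 and 15.9 in the exp lists. The input level of the surroundings exceeded this median in every library. The part of this input level in the peak density was not tested.

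CALM3 (chromosome 19, 46601074 to 46610782) encodes calmodulin, the calcium sensor, and had no peak in its span in any library. The nearest peaks stood 13.7 kb away in control 1, 27.9 kb in control 2, 11.9 kb in exp 1 and 54.4 kb in exp 2. Those of control 1 and exp 1 were named for PTGIR, the prostacyclin receptor gene, and had 25 DRIP reads each. The other genes with a peak within 100 kb were PPP5D1, PRKD2, AC093503.1 and DACT3-AS1. The surroundings of CALM3 held 3, 6, 2 and 1 peaks in control 1, control 2, exp 1 and exp 2, beside the medians of 2, 2, 1 and 1 given above.

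**Figure D3:**
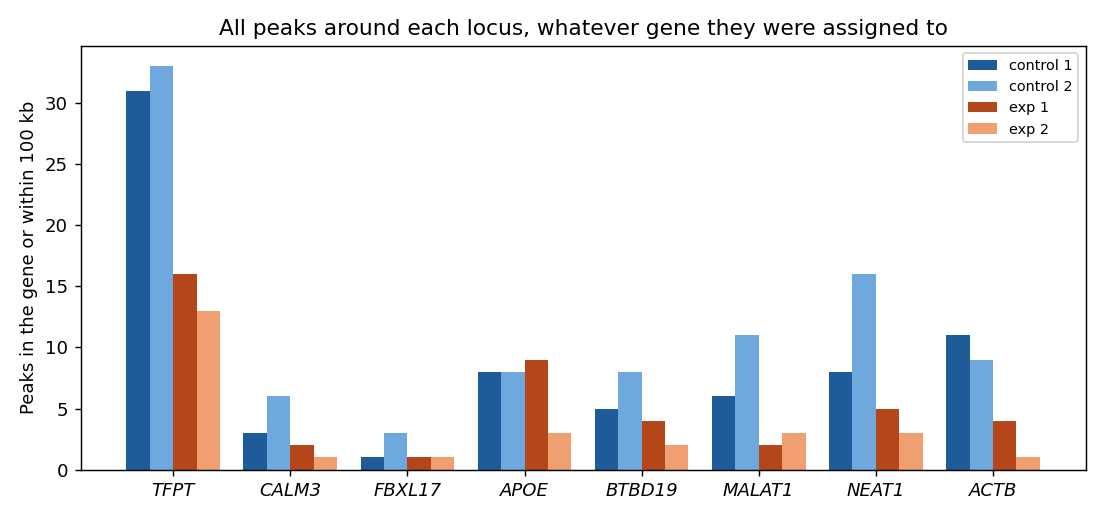
Number of peaks (vertical axis, from 0) in each locus or within 100 kb of it in the 4 libraries, whatever gene the list named. TFPT stands out with 31 and 33 peaks in the controls and 16 and 13 in exp, while CALM3 has 1 to 6 and FBXL17 1 to 3. FBXL17 spans 523 kb, so its peaks are counted over a much longer stretch than those of the other loci.

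FBXL17 (ENSG00000145743, chromosome 5, 107859035 to 108382098, minus strand) encodes a substrate receptor of an SCF ubiquitin ligase and spans 523 kb, far more than the other loci. Control 1 had a gene-body peak from 108107526 to 108108060, with 26 DRIP reads and 4 input reads, and control 2 one at 108058307 to 108058658 with 25 and 3 reads. Both lay in the middle of the gene, with summits at 52.4% and 61.9% of its length, and they did not overlap. No library had a peak over its RefSeq promoter window, and neither exp library had a peak in the span. Among protein-coding genes over 500 kb, 67.9%, 66% and 63.2% had a peak in control 1, control 2 and exp 1 and 49.2% in exp 2, and 6.03% were called in both controls only, 36.2% in all 4 libraries and 14.9% in none. An intergenic peak 31.4 to 31.5 kb past the gene in exp had 84 DRIP and 3 input reads in exp 1 and 31 and 1 in exp 2. Control 2 had an overlapping peak, with 62 and 3 reads and a GC skew of 0.98, and control 1 had none.

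APOE (ENSG00000130203, chromosome 19, 44905796 to 44909393, plus strand) encodes a lipid transport protein. Control 1 had a promoter-class peak from 44906142 to 44906495, with 27 DRIP reads and 3 input reads, a ratio of 9.00 (95% Clopper-Pearson interval 2.77 to 46.4). It covered the whole window printed above, and its deposited skew was 0.48, the same as that of the window to 2 decimals. In control 1, 9.89% of all peaks had a higher skew. Control 2 had no peak there but one 2.69 kb into the gene at its summit, at 44908342 to 44908762, with 23 DRIP and 10 input reads, a ratio of 2.30 (1.05 to 5.41), and a skew of -0.12. The peaks of the controls thus stood at opposite parts of the gene, one G-rich and the other not. Among the neighbours NECTIN2, an adhesion receptor gene, had a peak in all 4 libraries, and the others with a peak were APOC1, BCAM, CLPTM1 and RELB. Within 100 kb there were 8, 8, 9 and 3 peaks in control 1, control 2, exp 1 and exp 2, so exp 1 was not below the controls around APOE although it had no peak in the gene.

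BTBD19 (ENSG00000222009, chromosome 1, 44808523 to 44815585, plus strand) encodes a BTB domain protein. Control 1 had a terminator-class peak at 44813901 to 44814551 with 34 DRIP reads, and exp 1 one at 44814138 to 44814550 with 27. The exp 1 peak lay within the control 1 peak. Both had 0 input reads, as 1.43% and 1.41% of the peaks of these lists did, so the ratio was at least 11.3 in control 1 and at least 9.00 in exp 1, taking 3 counts per library as the floor of a count of 0. Their summits stood 1.53 and 1.36 kb before the end of the gene, and their skews were -0.23 and -0.36. Control 2 and exp 2 had no peak in the gene. Its promoter window lay under no peak. Within 100 kb, peaks were named for PLK3, KIF2C, BEST4, EIF2B3, ARMH1 and AL592166.1.

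MALAT1 (ENSG00000251562, chromosome 11, 65497738 to 65506516, plus strand) makes a long unspliced RNA of nuclear speckles. Control 1 had a peak of 1150 bp at 65499640 to 65500789 with 145 DRIP and 24 input reads, a ratio of 6.04 (95% Clopper-Pearson interval 3.9 to 9.73). Its DRIP count was the highest of any member peak outside ACTB. The summit stood 2.03 kb into the RefSeq span and the peak lay downstream of both RefSeq promoter windows. The peak of control 2 that was named for MALAT1 stood elsewhere, past the end of the gene from 65508120 to 65508752, where 55 DRIP reads met 11 of the input. The same library did have a peak over the first place, at 65499501 to 65500091 with 65 and 14 reads, but its list named it for AP000769.2 on the minus strand. The 2 controls shared 452 bp there, and their deposited skews were 0.38 and 0.43. RefSeq annotates the antisense RNA TALAM1 over the same bases, and the lists do not record which strand the hybrid came from. No exp library had a peak in or near the gene: the nearest stood 43.0 kb away in exp 1 and 41.8 kb in exp 2.

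NEAT1 (chromosome 11, 65422798 to 65445540), whose RNA builds paraspeckles, had no peak in any library. The nearest peaks were 39.8 kb away in control 1 and, on the side that faces MALAT1, 9.85 kb in control 2, 6.94 kb in exp 1 and 7.93 kb in exp 2. The last 3 lay between 65452482 and 65456097, were assigned to no gene and had 46, 19 and 26 DRIP reads. Within 100 kb of NEAT1 there were 8, 16, 5 and 3 peaks in control 1, control 2, exp 1 and exp 2, and around MALAT1 6, 11, 2 and 3. Besides those of MALAT1 itself, genes named for them included DPF2, FRMD8, AP000944.1, SLC25A45, TIGD3, CDC42EP2, LINC02736 and AP000769.2 and, on the other side, LTBP3, KCNK7 and MAP3K11.

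ACTB (ENSG00000075624, chromosome 7, 5527148 to 5530601, minus strand) encodes the cytoplasmic beta actin, and it was the only member called in all 4 libraries. Control 1 had 2 peaks, at 5527240 to 5527704 with 124 DRIP and 38 input reads and at 5528033 to 5529336 with 99 and 31. Control 2 had the first alone, at 5527261 to 5527738 with 115 and 39 reads. In exp 1 a single peak ran from 5527219 to 5529405 with 313 and 73 reads, and in exp 2 one from 5527241 to 5529394 with 372 and 73. The exp peaks thus bridged both control 1 peaks. All of them lay in the downstream part of the gene, with summits at 61.6% to 93.3% of its length, and their deposited skews, from 0.01 to 0.10, were near 0. The first kb of the gene, with its promoter, lay under no peak.

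The peaks of ACTB covered 1769 and 478 bp in the controls and 2187 and 2154 bp in exp, so reads were set against input reads within each library. The intervals still differ between libraries, since each was called from that library, and control 2 covers only the stretch nearest the gene end. The ratios therefore compare unlike intervals. DRIP reads per input read were 3.23 in control 1 and 2.95 in control 2, with 95% Clopper-Pearson intervals of 2.46 to 4.30 and 2.03 to 4.36. The exp 1 value was 4.29 (3.31 to 5.61) and that of exp 2 5.10 (3.96 to 6.64). Both exp values lay above both control values, with means of 4.69 ± 0.57 (SD, n = 2) and 3.09 ± 0.20 (SD, n = 2), a ratio of 1.52, and the permutation p, two-sided and exact, was 0.33, the lowest possible. Over all peaks of a library the ratio went the other way, from 2.11 and 1.94 in control to 1.85 and 1.39 in exp libraries. Neither ratio is scaled for library depth, and divided by the value over all peaks that of ACTB was 1.53, 1.52, 2.32 and 3.67. Of 1842 regions called in all 4 libraries with reads in each, 6.24% had a higher unscaled ratio in both exp than in both control libraries and 25.4% a lower one. After the same scaling these shares were 28.4% and 5.75%. By the mean log2 difference ACTB ranked 66 of the 1842, at 1.51-fold where the median region stood at 0.893-fold. DRIP reads per kb did not separate the groups, with 126 and 241 for the controls against 143 and 173 for exp (two-sided exact permutation p = 1), the highest being that of the short control 2 peak.

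Input reads over the ACTB peaks were 39.0, 81.6, 33.4 and 33.9 per kb in control 1, control 2, exp 1 and exp 2, above 92.8%, 98.4%, 90.7% and 88.6% of the peaks of these lists. ACTB has many processed pseudogenes that resemble its exons closely, so the assignment of reads among these copies is uncertain, and their part in the ratio was not tested. The strength of the peaks within each list also differed. The fold enrichment deposited by the authors was at most 3.30, 3.45, 3.62 and 4.65, which is higher than 27.2%, 41.2%, 48.1% and 84.2% of the peaks of control 1, control 2, exp 1 and exp 2. Among the 12324 genes compared, the patterns of best fold enrichment most like that of ACTB, by the Euclidean distance of these percentiles over the 4 libraries, were those of LINC01951 (distance 17) and PRLR, the prolactin receptor gene (19.7).

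**Figure D4:**
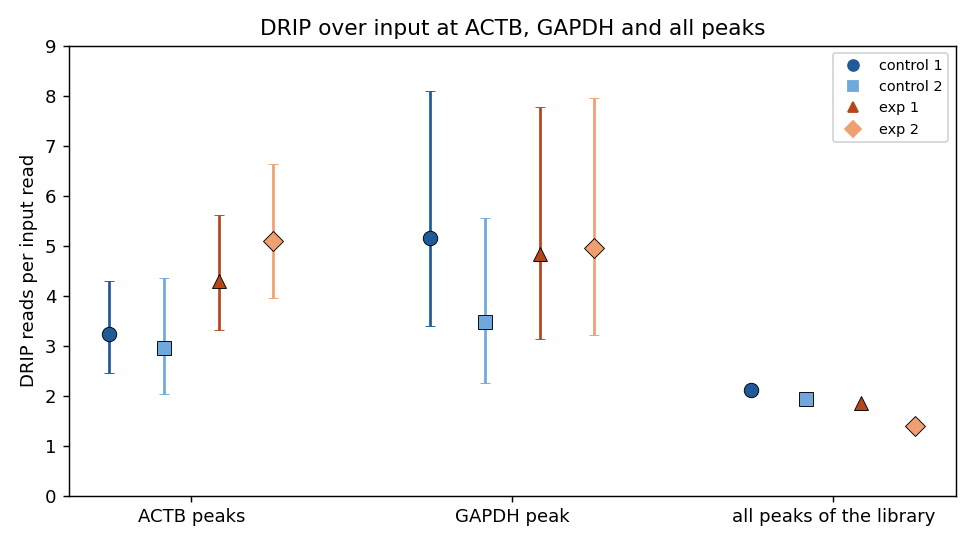
DRIP reads per input read (vertical axis, from 0) over the peaks of ACTB, over the GAPDH peak and over all peaks of each of the 4 libraries; bars at ACTB and GAPDH are 95% Clopper-Pearson intervals that cover counting error only. At ACTB the exp values of 4.29 and 5.10 lie above the control values of 3.23 and 2.95 with overlapping intervals, while over all peaks the exp values of 1.85 and 1.39 lie below 2.11 and 1.94.

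Over all member peaks of a library, DRIP reads per input read were 4.26 and 3.48 for control 1 and control 2, and 4.66 and 5.10 for exp 1 and exp 2 (two-sided exact permutation p = 0.33). Without control 2 the difference of the means went from 1.01 to 0.615. These sums come from different loci: without ACTB, the controls had 314 DRIP and 57 input reads and 191 and 49, exp 1 had 27 and 0 from BTBD19 alone, and exp 2 had none. The intervals above treat reads as independent, which PCR reads without molecular identifiers are not.

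Beside the members, 12 other genes that serve as DRIP-qPCR or reference amplicons, positive or negative, were read in the same way. Of these 7, 7, 4 and 2 had a peak in control 1, control 2, exp 1 and exp 2. The shares of all protein-coding genes were 24.4%, 24.9%, 17.8% and 14.3%. Of the 12, only GAPDH, a glycolytic enzyme gene, was called in all 4 libraries. The GAPDH peaks lay on chromosome 12 from 6537579 to 6538347, with 139, 94, 121 and 124 DRIP and 27, 27, 25 and 25 input reads. Its DRIP reads per input read, 5.15 and 3.48 for the controls against 4.84 and 4.96 for exp, overlapped between the groups. Divided by the value over all peaks, as for ACTB, they were 2.44 and 1.79 for the controls and 2.61 and 3.57 for exp, and both exp values then lay above both controls. ACTG1, which encodes gamma actin, had a promoter peak at chromosome 17 from 81511229 to 81512135 in exp 1 and from 81511237 to 81512142 in exp 2, with 74 and 73 DRIP reads and 13 input reads in each. A control 2 promoter peak with 34 DRIP and 7 input reads, from 81511985 to 81512343, overlapped the upstream part of both, and control 1 had none there. Over all ACTG1 peaks, its terminator peaks included, DRIP reads per input read were 4.12 in control 2, 3.75 in exp 1 and 3.18 in exp 2. FMR1, the fragile X gene, had one gene-body peak position on chromosome X in control 1, control 2 and exp 1 with 25, 23 and 37 DRIP reads. TRIM33, a transcriptional corepressor gene, had 2 and 5 peaks in the controls and 1 in exp 1. UTP4 and EGR1 had 1 in each control and none in exp, as 3.67% of protein-coding genes were called in both controls only. In neither gene did the 2 control peaks overlap. RPL13A, a ribosomal protein gene, and ZNF554 were called in control 1 alone and MYADM in control 2 alone, while SNRPN, H2BC8 and ING3 had no peak.

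Of 16 other nuclear or abundant non-coding RNA genes, 2, 2, 2 and 1 had a peak in control 1, control 2, exp 1 and exp 2, and 12 had none in any library. PVT1, a long lncRNA gene, had 3 and 10 peaks in the control lists and 6 and 7 in the exp lists, which overlap. GAS5 and SNHG1, snoRNA host genes, had 1 peak each, in control 1 and in control 2, and MEG3, an imprinted lncRNA, had 1 in exp 1. The absence of peaks at NEAT1 was therefore shared by most genes of this list, and a gene without a peak was below the threshold of the caller in these libraries, which does not show that it has no hybrid.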

How the data were processed

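DRIP peaks of 2 control and 2 exp libraries of PC-9 cells, with 1 input library, were read from the 4 deposited annotated peak lists. The submitters' processing notes name Bowtie2, MACS2, cutadapt, FastQC and DiffBind as tools and hg38 (GRCh38) as the build, with no roles. Peaks were called in each library separately, and each list holds, per the file headers, deposited read counts of the DRIP and input library over each peak, the fold enrichment (a ratio) and −log10 p and q of each peak, and a GC skew score. The authors assigned each peak its gene and location class. The deposited −log10 values, fold enrichment and score are the authors' own values for each peak and were used only to describe, rank or filter peaks within a list.

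The members and gene lists were chosen with earlier results of these data known. Peaks were taken by gene name, and gene spans and promoters came from RefSeq GRCh38.p14. Named genes were all members, the fixed list genes with a peak, the genes with a peak within 100 kb (one is not reported here), and the genes most like ACTB. Neither raw reads nor a genome was used. Libraries were compared with exact permutation tests, two-sided, which cannot go below p = 0.33, and ratios have Clopper-Pearson 95% intervals. These and the floor of 3 counts cover counting error only. Depth was 646455 to 1266127 DRIP reads over peaks. Same-numbered libraries did not deviate together (r = 0.02 across 1842 regions, which are not independent replicates). Alternatives were the q threshold, equal peak numbers, the rule of assignment, each library left out, scaling and a replicate block. Scripts, tested on simulated data, used Python 3.11.15, pandas 2.3.3, numpy 2.4.6, scipy 1.17.1 and matplotlib 3.10.9.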

Additional observations from a re-analysis of the deposited data

How the results depend on the processing

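The lower number of members with a peak in exp (difference of means -4) and of assigned peaks (-5) kept its direction at −log10 q of at least 2, with equal peak numbers per list, among peaks where DRIP reads exceeded input reads, with RefSeq overlap in place of the deposited name, and with each library left out. At −log10 q of at least 5 both differences reversed, to 0.5 and 0.5 (exact permutation p = 1), with 0 members in both controls only and 1, ACTB, in both exp only. Leaving out 1 library gave -4.5 to -3.5 members, -5.5 to -4.5 peaks, 0.615 to 1.40 for DRIP per input read over member peaks (1.01 with all libraries, 0.615 without control 2) and 1.20 to 2.01 for that of ACTB (1.60 with all). In each case 4 members had a peak in every control that remained and in no exp library that remained. That rule is looser than the one over all libraries. With the replicate number as a block the differences were -4, -5, 1.01 and 1.60, each with an exact sign-flip p = 0.5, the smallest for 2 pairs. The block and the scaling of ACTB by all peaks were chosen after seeing the data. The edgeR fits were not run, since no member lay in a region with exactly 1 peak in each library. With 2 libraries a group no comparison could pass 0.05, and member peaks rest on 23 to 372 DRIP reads.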
